A study of Mus musculus with 28 samples.

Results

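Transcripts of 9 genes tied to the residence of T cells in tissue (Cd69, Itgae, Itga1, Zfp683, Runx3, Rgs1, Rgs2, Rgs16 and Cd44) were looked up by symbol in a table of 25124 genes. Of the 9, 8 had a row, and Zfp683 was not analysed here. RNA was sequenced from CD4+ T cells of the mouse small intestinal lamina propria, sorted as live cells positive for CD45, CD90.2, TCRb and CD4. Mice in each group carried T-bet-ZsGreen, a fluorescent reporter of the transcription factor T-bet, so no group lacks it. They were housed specific-pathogen-free (SPF) or germ-free (GF), and received aCD3, an antibody to the CD3 chains through which the T cell receptor signals, or a control antibody of the same isotype. There were 6 SPF isotype libraries (3 female, 3 male), 6 SPF aCD3 libraries (3 female, 3 male), 10 GF isotype libraries (5 female, 5 male) and 6 GF aCD3 libraries (1 female, 5 male), and each library is called by its sex letter and replicate number. Age, antibody dose and the time from injection to sampling were not given in the sources used here. Nothing in the labels says that replicates came from separate animals, so p-values measure the spread between these libraries, which may be technical.

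A T cell that stays in the gut wall must ignore the lipid signal S1P that draws cells toward lymph and blood. CD69 binds and removes the S1P receptor S1PR1 from the cell surface, while integrins anchor the cell: CD103 (Itgae, paired with Itgb7) holds E-cadherin of the epithelium, and CD49a (Itga1, paired with Itgb1) holds collagen. Runx3 is a transcription factor of residency programs, RGS proteins speed the shut-off of G proteins behind chemokine and S1P receptors, and CD44, a hyaluronan receptor, marks T cells that have met antigen.

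Values are TPM as the authors deposited them, an abundance scaled by gene length and library total, and are compared between libraries within a gene. Between 6765529 and 17860602 reads fell in genes per library, counted from the TPM steps. The 8 defining CD4 T cell markers were all present, with sums of 1637 to 2219 TPM across the 28 libraries. The 74 histone genes took 4.27% to 7.27% of summed TPM in SPF isotype, 24.1% to 27.1% in SPF aCD3, 4.02% to 9.51% in GF isotype and 5.63% to 26.3% in GF aCD3. The sample labels list polyA RNA, whereas the design text names a kit for total RNA; the 2 descriptions could not be reconciled from the files, and what a share of histone or ribosomal transcripts represents depends on which is right. The median of all 12182 tested genes moved by -0.35 (log2) in SPF aCD3 against SPF isotype, and by -0.13 with the histone genes and Rn45s, the ribosomal RNA precursor, left out of the total, so values rescaled by median-of-ratios size factors are given beside those from TPM as deposited. In GF aCD3, libraries F1, M3 and M4 stood apart: Lag3, a coinhibitory receptor at 505.0 to 824.9 TPM in SPF aCD3, was at 9.59, 17.0 and 12.3 TPM there, inside the GF isotype range of 5.41 to 18.5, and at 498.4, 452.0 and 527.0 TPM in M1, M2 and M5. Whether the libraries labelled F1, M3 and M4 came from mice that received aCD3, or carry the right label, was not tested and could not be settled from the labels, so each GF aCD3 value below is that of libraries so labelled. In bulk RNA, fewer cells of a type and less RNA per cell cannot be told apart.

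**Figure D1:**
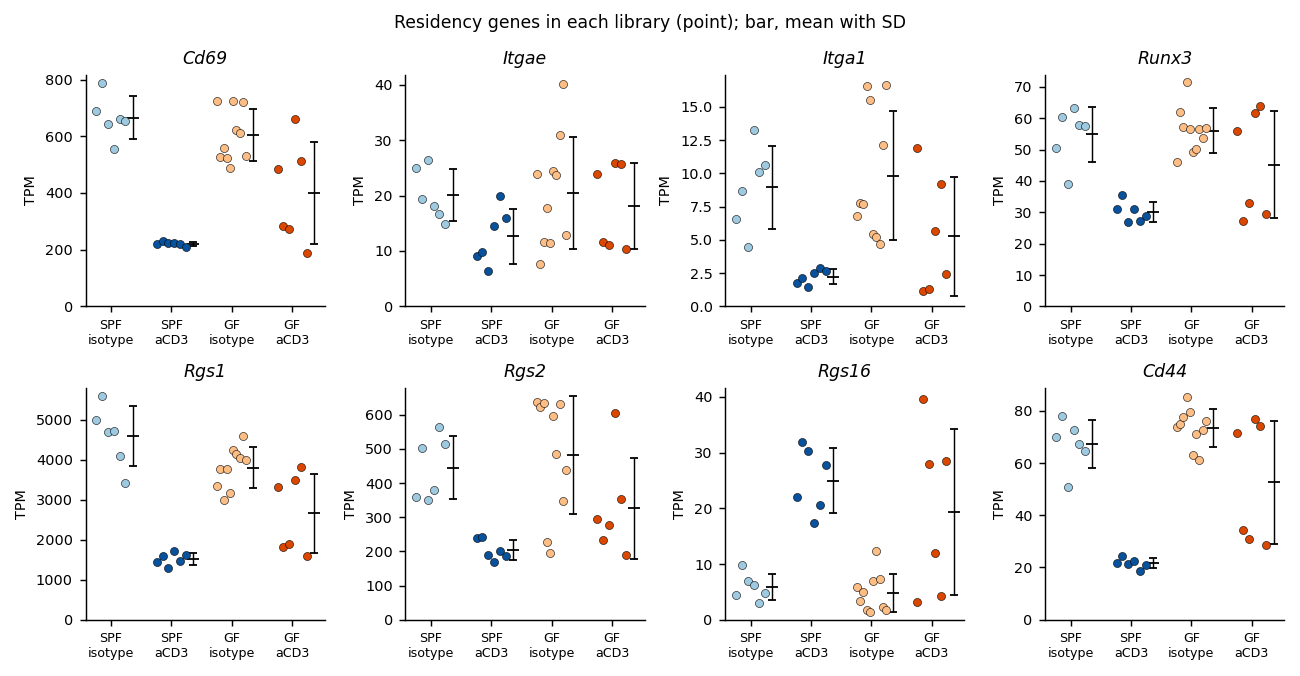
TPM of the 8 genes in each library (points; y axes start at 0) by group, with the group mean and SD as a bar. For Cd69, Itga1, Runx3, Rgs1, Rgs2 and Cd44 the 6 SPF aCD3 libraries lie below the 6 SPF isotype libraries, for Rgs16 above them, and the GF aCD3 libraries spread across both levels.

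In SPF mice, 6 of the 8 genes were lower with aCD3 and Rgs16 was higher. Cd69, Rgs1 and Cd44 stood at about the same share of their isotype level, with log2 fold changes of -1.57, -1.58 and -1.59. Itga1, whose fold change is understated on this scale because its values are low, was at -1.57 with an aCD3 mean 0.25 times that of isotype, against 0.33, 0.33 and 0.32 times for Cd69, Rgs1 and Cd44. Rgs2 and Runx3 had smaller changes, and Itgae did not pass the test. By limma on log2(TPM + 1), 7 of 8 passed an adjusted p of 0.05, beside 64.8% of all tested genes (50.7% lower and 14.2% higher). The median over the 8 was -1.34, against -0.35 over all genes. After the rescaling the same directions passed for 6 lower and 1 higher, with a median of -0.93 beside -0.01 over all genes, and 60% of all genes passed (29.8% lower and 30.2% higher). For these 7 genes every SPF aCD3 library lay outside the SPF isotype range, as did 41.9% of all genes (33.4% lower, 8.57% higher). In SPF the sample numbers in the column names run 1 to 6 for isotype and 7 to 12 for aCD3, so the number order and the treatment cannot be told apart.

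Cd69 (NM_001033122, mm10 chr6:129267324-129275369, minus strand) ran from 555.3 to 787.9 TPM in SPF isotype (median 657.2) and from 210.4 to 232.2 TPM in SPF aCD3 (median 222.0). The aCD3 libraries lay close together, with a coefficient of variation of 3.23%, and all 6 were below the lowest isotype library. The mean fell from 665.0 ± 75.4 (SD, n = 6) to 221.6 ± 7.15 TPM (SD, n = 6), a log2 change of -1.57 (SE 0.20, limma adjusted p = 1.94e-06) and of -1.16 after rescaling. In GF isotype Cd69 spanned 488.1 to 725.5 TPM (median 585.9), and in GF aCD3 189.4 to 659.5 TPM (median 385.1). The GF aCD3 values were 285.2, 273.6 and 189.4 TPM in M1, M2 and M5, below every GF isotype library. F1 was also just below that range at 485.0 TPM, while M3 and M4 were inside it at 659.5 and 514.5 TPM.

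S1pr1, the receptor that CD69 removes, rose in SPF aCD3 by 1.04 (SE 0.23, limma adjusted p = 0.000328). Klf2, a transcription factor that drives S1pr1, was at -0.28 (adjusted p = 0.557). Of 20 egress and circulation genes, 17 were tested, of which 7 rose and 4 fell in SPF aCD3, with a median of 0.19, beside 14.2% of all genes higher, 50.7% lower and a median of -0.35. After rescaling 9 rose and 4 fell, beside 30.2% and 29.8% of all genes. Those that rose included Ccr7 (a lymph node homing receptor, 1.59, adjusted p = 0.00855), and those that fell included Il7r (the interleukin-7 receptor alpha chain, -3.46, adjusted p = 3.13e-05) and Klf3 (-2.02, adjusted p = 0.000338). A list of 5 naive T cell markers summed to 73.3 to 94.3 TPM in SPF isotype and 42.8 to 175.1 TPM in SPF aCD3, and its part in these values was not tested.

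Immediate early and heat shock genes were, like Cd69, mostly lower in SPF aCD3. Cells were released from tissue at 37 °C, per the labels' protocols, and a list of 18 such genes, added after values had been seen, summed to between 26152 and 36178 TPM in SPF isotype and between 7060 and 8253 TPM in SPF aCD3. Of the 18, 15 fell and 1 rose in SPF aCD3, with a median of -1.99, beside 50.7% of all genes lower, 14.2% higher and a median of -0.35. After rescaling 13 fell and 2 rose, with a median of -1.58, beside 29.8% of all genes lower, 30.2% higher and a median of -0.01. Hspa1a, a heat-inducible chaperone, fell most (-3.73, limma adjusted p = 1.46e-06). In GF the sums were 11166 to 25108 TPM for isotype and 5956 to 23412 TPM for aCD3, and 4 of the 18 fell with aCD3 (Fos, Fosb, Jun and Dusp1), beside 4.61% of all genes lower. Fos was at -0.91 and Jun at -0.83 (adjusted p = 0.0481 for both). The GF isotype sums all lay below the SPF isotype sums, while Cd69 differed by -0.15 between those groups (limma adjusted p = 0.616). The part of these genes' change in that of Cd69, Rgs1 and Rgs2 was not tested.

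Of the integrin alpha chains, Itga1 passed the test and Itgae did not, and the difference between them was not tested. Itgae (NM_001361245, chr11:73090583-73147449, plus strand) was at 14.9 to 26.5 TPM in SPF isotype (median 18.8) and 6.33 to 19.9 TPM in SPF aCD3 (median 12.2). The groups overlapped, with 4 of 6 aCD3 libraries below the isotype range. The log2 change was -0.69 (SE 0.32, limma adjusted p = 0.0588), and -0.31 (adjusted p = 0.404) after rescaling. Fitted on the SPF libraries alone it passed (adjusted p = 0.0230), and it also passed when SPF aCD3 M2 (-0.80, adjusted p = 0.0392), SPF isotype M2 (-0.78, adjusted p = 0.0480) or SPF isotype M3 (-0.81, adjusted p = 0.0378) was left out. The same held, at -0.69, without GF aCD3 F1, GF isotype F2 or GF isotype M4 (adjusted p = 0.0470 to 0.0499).

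Haspin, a histone kinase gene on the opposite strand, lies within Itgae, and whether the authors' counting used strand is not stated. Its row held 48 to 242 reads, equal to 3.03% to 28.2% of the Itgae reads of the same library, on average 4.78% in SPF isotype and 16.6% in SPF aCD3. With those reads taken off, the difference of mean log2 values was -0.86 in place of -0.69, given without a test.

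Itga1 (NM_001033228, chr13:114958081-115101964, minus strand) spanned 4.49 to 13.3 TPM in SPF isotype (median 9.40) and 1.45 to 2.90 TPM in SPF aCD3 (median 2.32). No aCD3 library reached the lowest isotype library. The mean fell from 8.95 ± 3.11 to 2.24 ± 0.561 TPM (SD, n = 6 each), a log2 change of -1.57 (SE 0.39, limma adjusted p = 0.00104) and of -1.27 after rescaling. Pelo, a ribosome rescue factor gene, lies within Itga1 on the same strand, and its row held 3.44% to 34.2% as many reads. With the Pelo reads taken off, the difference of mean log2 values was -1.68, given without a test, and all 6 aCD3 libraries stayed below the isotype range. GENCODE M21 also has Gm49395 on the same strand over 66649 bases of Itga1 and the antisense gene Gm10734 over 1487 bases, whose reads were not taken off.

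Itgb1, the beta chain partner of Itga1, fell by 1.19 on the log2 scale in SPF aCD3 (SE 0.18, limma adjusted p = 1.23e-05). Itgb7, the partner of Itgae, was at 0.14 (adjusted p = 0.318), and at 0.55 after rescaling (adjusted p = 0.000159). Of 13 integrin chains and ligands tested, 5 fell and Itgb2, the common leukocyte beta chain, rose (0.23, adjusted p = 0.0236), beside 50.7% of all genes lower and 14.2% higher. After rescaling 2 fell and 6 rose, beside 29.8% and 30.2% of all genes, so directions in this list depend on the scaling.

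Runx3 (NM_001369050, chr4:135152545-135177987, plus strand) was at 39.0 to 63.3 TPM in SPF isotype (median 57.7) and 26.9 to 35.6 TPM in SPF aCD3 (median 29.9). The groups did not overlap, though the lowest isotype library, F3, lay near the highest aCD3 library. The log2 change was -0.83 (SE 0.17, limma adjusted p = 0.000217) and -0.43 after rescaling (adjusted p = 0.00169). Cbfb, the partner that RUNX proteins need to bind DNA firmly, was at 0.09 (adjusted p = 0.185) and at 0.50 after rescaling (adjusted p = 4.17e-05). Of 15 residency transcription factors and genes of TGF-beta input, 10 fell and 2 rose, beside 50.7% of all genes lower and 14.2% higher, and after rescaling 8 fell and 4 rose, beside 29.8% lower and 30.2% higher. Smad3 (-1.58, adjusted p = 7.34e-06), which carries the TGF-beta signal to the nucleus, and the receptor chain Tgfbr2 (-1.50, adjusted p = 1.70e-05) fell most, and Prdm1, encoding the repressor Blimp-1 (0.49, adjusted p = 0.000627), and Runx2 (0.43, adjusted p = 0.00762) rose.

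The 3 RGS genes did not move together: Rgs1 and Rgs2 were lower and Rgs16 was higher in SPF aCD3. Their starts are shown where the sequence table held one, here for the pair that moved in opposite directions, as RefSeq sequence of GRCm38.p6 from 250 bases before to 50 after the gene start. Of the 8 genes, 5 had an entry among 32851 promoters, in 6 windows, since Runx3 had 2 starts. Capitals mark CCAAT and TGACG, the first letters of the cyclic AMP response element TGACGTCA, on either strand.
Rgs2 (chr1:144004100-144004399, minus strand): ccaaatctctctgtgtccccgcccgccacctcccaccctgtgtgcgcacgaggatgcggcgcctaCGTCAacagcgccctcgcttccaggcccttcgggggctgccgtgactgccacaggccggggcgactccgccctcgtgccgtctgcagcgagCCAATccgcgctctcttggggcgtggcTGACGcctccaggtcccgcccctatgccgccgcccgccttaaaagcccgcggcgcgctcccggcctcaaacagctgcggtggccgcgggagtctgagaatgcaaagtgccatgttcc
Rgs16 (chr1:153740103-153740402, plus strand): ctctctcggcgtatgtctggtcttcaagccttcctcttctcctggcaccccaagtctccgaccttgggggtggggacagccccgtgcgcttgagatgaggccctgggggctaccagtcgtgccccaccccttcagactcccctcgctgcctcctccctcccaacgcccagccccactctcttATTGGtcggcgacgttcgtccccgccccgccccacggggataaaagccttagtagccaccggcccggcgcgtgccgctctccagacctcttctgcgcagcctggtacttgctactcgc
The Rgs2 window held TGACG 185 and 67 bases before the start and CCAAT 94 bases before it. Rgs16 held CCAAT, read on the other strand, 68 bases before its start, and had no match to the other motif. That motif, TGACG, occurs in 20.8% of all promoters and in 1 of the 6 windows, and CCAAT in 37.4% and in 4 of the 6. The RUNX letters TGTGGT occurred in 1 window, the upstream start of Runx3 (16.8% of all promoters), and the NFAT core GGAAA, not capitalised, in 2, those of Cd44 and Itga1 (61.3%). TGANTCA (AP-1, 7.81%), TGACGTCA (1.79%), TATAAA (13.6%) and CACGTG (7.15%) were in none of the 6. Both strands were searched for each.

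Rgs1 (NM_015811, chr1:144244669-144249104, minus strand) spanned 3418 to 5582 TPM in SPF isotype (median 4712) and 1286 to 1709 TPM in SPF aCD3 (median 1521). The highest aCD3 library was at less than the lowest isotype library. The log2 change was -1.58 (SE 0.18, limma adjusted p = 9.26e-07) and -1.17 after rescaling. Rgs2 (NM_009061, chr1:143999338-144004149, minus strand) spanned 350.6 to 564.7 TPM in SPF isotype (median 440.2) and 168.7 to 241.6 TPM in SPF aCD3 (median 195.1). It too did not overlap, with a log2 change of -1.11 (SE 0.28, limma adjusted p = 0.00135) and of -0.69 after rescaling (adjusted p = 0.0251).

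Rgs16 (NM_011267, chr1:153740353-153745468, plus strand) spanned 2.98 to 9.82 TPM in SPF isotype (median 5.59) and 17.3 to 31.98 TPM in SPF aCD3 (median 24.9). All 6 aCD3 libraries were above the isotype range. The mean was 5.90 ± 2.37 against 24.96 ± 5.86 TPM (SD, n = 6 each), a log2 change of 1.95 (SE 0.47, limma adjusted p = 0.000946) and of 2.34 after rescaling. Its counts were low, from 11 to 362 reads per library over all 28. The antisense gene Gm28513 of GENCODE M21 overlaps 1917 bases of Rgs16, and without strand its reads cannot be told apart from those of Rgs16. Of 14 other RGS and G alpha genes, 10 were tested, of which Gnai2, a G alpha subunit of chemokine receptors, rose (0.36, adjusted p = 0.000772) and 4 fell, among them Rgs14 (-1.18, adjusted p = 1.12e-05) and Rgs3 (-1.11, adjusted p = 9.04e-05). Over all genes 50.7% were lower and 14.2% higher. After rescaling 4 of the 10 rose and 3 fell, beside 30.2% and 29.8% of all genes.

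Cd44 (NM_009851, chr2:102811142-102901665, minus strand) spanned 50.98 to 77.9 TPM in SPF isotype (median 68.5) and 18.5 to 24.3 TPM in SPF aCD3 (median 21.5). The groups were far apart, with no overlap. The mean fell from 67.2 ± 9.18 to 21.6 ± 1.88 TPM (SD, n = 6 each), a log2 change of -1.59 (SE 0.19, limma adjusted p = 1.09e-06) and of -1.19 after rescaling.

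Of a wider list of 32 residency associated genes, 26 fell and 3 rose in SPF aCD3, with a median of -1.01, beside 50.7% of all genes lower, 14.2% higher and a median of -0.35. After rescaling 19 fell and 4 rose, with a median of -0.60, beside 29.8% of all genes lower and 30.2% higher. Xcl1, a chemokine for cross-presenting dendritic cells (-3.36, limma adjusted p = 1.09e-07), and Nr4a3, a nuclear receptor induced by antigen signals (-2.39, adjusted p = 6.77e-06), fell most. Ctla4, a coinhibitory receptor (1.10, adjusted p = 0.000102), and Prdm1 rose, as did Icos. Markers of other cells moved between the same groups: summed stromal and endothelial markers were 15.1 to 44.8 TPM in SPF isotype and 2.95 to 4.83 TPM in SPF aCD3, with Col1a2 and Col6a1 at 0 in the latter and 9 of 10 markers under 1 TPM on average. B and plasma cell markers (7 genes) were at 95.8 to 271.6 and 2.55 to 8.82 TPM, myeloid and dendritic markers (10 genes) at 12.7 to 21.2 and 61.7 to 110.6 TPM, and regulatory T cell markers (6 genes) at 54.6 to 71.6 and 86.6 to 135.1 TPM. NK cell and ILC markers (6 genes) were at 35.9 to 47.1 and 14.3 to 24.9 TPM, and erythroid markers (5 genes) at 2.29 to 10.2 and 0.716 to 1.28 TPM. In the myeloid list only Cd68 (mean 5.99 to 76.5 TPM) and Cd14 (0 to 0.53 TPM) were higher in SPF aCD3. The rest had lower means, such as Xcr1 (8.78 to 5.62 TPM) and Itgax (1.24 to 0.29 TPM). The B and plasma sum was mostly Jchain (mean 169.0 to 0.79 TPM). The part of these other cells in the residency genes' values was not tested.

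**Figure D2:**
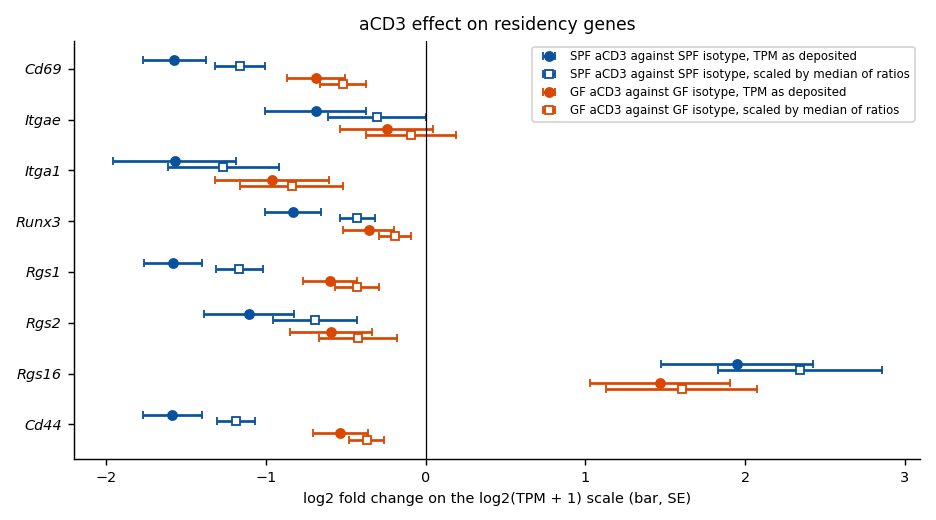
Log2 fold change with aCD3 (x axis; bars, SE) for each of the 8 genes in SPF (blue) and GF (orange), from TPM as deposited (filled circles) and after median-of-ratios scaling (open squares). In SPF 7 of 8 genes pass the test from TPM as deposited and in GF 3 of 8, and each gene has the same sign in both.

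In GF mice, Cd69 and Rgs1 were lower and Rgs16 was higher with aCD3, and the other 5 genes did not pass the test. Of the 8 genes 3 passed, beside 7.08% of all tested genes (4.61% lower and 2.46% higher). Cd69 changed by -0.69 (SE 0.18, limma adjusted p = 0.0481), Rgs1 by -0.60 (SE 0.17, adjusted p = 0.0481) and Rgs16 by 1.47 (SE 0.44, adjusted p = 0.0484). Since 0.0481 was the lowest adjusted p over all genes, these calls sit at the threshold. They were lost (0 of 8 passed) when any 1 of 25 libraries was left out, M1, M2 and M5 of GF aCD3 among them, and 6, 7 and 6 genes passed without GF aCD3 F1, M3 or M4. Without F1, M3 or M4, 3630, 4213 and 3859 of all 12182 tested genes passed, against 862 with all libraries. Cd44 was at -0.54 (adjusted p = 0.0533) and passed after rescaling (-0.37, adjusted p = 0.0421), where 4 of 8 genes and 9.65% of all genes passed. The values were -0.97 for Itga1 (adjusted p = 0.0700), -0.59 for Rgs2 (adjusted p = 0.106), -0.36 for Runx3 (adjusted p = 0.113) and -0.25 for Itgae (adjusted p = 0.555). The median of the 8 was -0.56 beside -0.15 over all genes. No gene of the 8 had GF groups that did not overlap, as 0.0657% of all genes did.

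The 6 GF aCD3 libraries were spread widely. In M1, M2 and M5, 5 genes (Cd69, Itga1, Runx3, Rgs1 and Cd44) lay below every GF isotype library and Rgs16 above every one, and Rgs2 was also below in M5. In the same libraries, between 47.4% and 52.8% of all 12182 tested genes lay below every GF isotype library and 12.2% to 14.3% above, so these positions are given as a description with no test. M3 and M4 lay inside the GF isotype range for 8 of 8 genes and F1 for 7 of 8, with 4.16% to 8.98% of all tested genes below that range and 6.44% to 19.3% above. That range pools the 2 blocks of sample numbers in the column names, 25 to 33 (isotype libraries, M1, M2 and M3) and 48 to 54 (isotype libraries, M4, M5 and F1). Against only the isotype libraries of its own block, Rgs2 was below in M1, M2 and M5, and Itgae in M5. M3 still lay inside for 8 of 8 genes. On the same footing M4 lay outside for Itga1 (below) and Rgs16 (above), and F1 for Cd69, Itga1 and Cd44 (below) and Rgs16 (above). Only 4 isotype libraries share the block of M4 and F1, and the share of all genes outside an own-block range was not counted. These own-block positions are thus a description with no test. Cd44 was at 34.5, 30.8 and 28.7 TPM in M1, M2 and M5, and at 71.4, 76.7 and 74.0 TPM in F1, M3 and M4, against 61.0 to 85.5 TPM in GF isotype. The libraries with Cd44 inside the GF isotype range were those with Lag3 inside it.

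Rgs1 showed the same split, with 1818, 1891 and 1604 TPM in M1, M2 and M5 and 3306, 3494 and 3826 TPM in F1, M3 and M4, against 2987 to 4592 TPM in GF isotype. Runx3 was at 27.1, 32.9 and 29.6 TPM in M1, M2 and M5 and at 56.0, 61.7 and 63.8 TPM in F1, M3 and M4 (GF isotype 46.1 to 71.7 TPM). For both genes M1, M2 and M5 were at or near the SPF aCD3 level and the other 3 at the isotype level. Rgs16 was at 39.7, 27.999 and 28.6 TPM in M1, M2 and M5, and at 3.26, 12.1 and 4.17 TPM in F1, M3 and M4 (GF isotype 1.41 to 12.3 TPM).

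Itgae was at 11.5, 11.1 and 10.3 TPM in M1, M2 and M5, and at 23.965, 25.975 and 25.7 TPM in F1, M3 and M4. All 6 lay inside its wide GF isotype range of 7.72 to 40.2 TPM. M5 was below the isotype libraries of its own block (11.5 to 40.2 TPM). The highest GF isotype library for Itgae, M4, also had the highest sum of the 2 listed CD8 markers, Cd8a and Cd8b1. That sum was 61.2 TPM, against 1.25 to 8.54 TPM in the other GF isotype libraries. It was nearly all Cd8a (up to 60.0 TPM in GF isotype), while Cd8b1 reached no more than 1.54 TPM in any GF isotype library. Histone genes took 23.7%, 23.4% and 26.3% of TPM in M1, M2 and M5 and 5.63%, 7.76% and 6.68% in F1, M3 and M4. Regulatory T cell markers summed to 124.2, 166.3 and 130.2 TPM in M1, M2 and M5 (GF isotype 40.2 to 117.6 TPM), NK cell and ILC markers to 16.5, 15.1 and 14.5 TPM (GF isotype 18.4 to 55.2 TPM), and stromal and endothelial markers to 5.51, 3.98 and 3.96 TPM (GF isotype 8.16 to 16.7 TPM). Myeloid and dendritic markers summed to 64.6, 64.3 and 71.02 TPM there (GF isotype 18.5 to 58.2 TPM), B and plasma cell markers to 6.67, 8.29 and 7.29 TPM (GF isotype 10.995 to 114.4 TPM), and immediate early and heat shock genes to 10806, 10220 and 5956 TPM (GF isotype 11166 to 25108 TPM). In the myeloid list Cd68 ran from 8.33 to 57.99 TPM over GF aCD3, against 3.29 to 18.4 TPM in GF isotype. Xcr1 averaged 17.9 TPM in GF aCD3 and 21.8 TPM in GF isotype. Pancreatic acinar markers were at 528.6 TPM in M3 and 105.8 TPM in F1, against 2.35 to 80.1 TPM in GF isotype. The part of these cells in the values of the 8 genes was not tested.

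With F1, M3 and M4 left out, and with no test since these libraries differ by a measured level, the difference of mean log2 values between GF aCD3 and GF isotype went from -0.70 to -1.28 for Cd69, from -0.59 to -1.09 for Rgs1 and from -0.59 to -1.20 for Cd44. It went from -0.99 to -1.94 for Itga1, from -0.38 to -0.88 for Runx3, from -0.56 to -0.96 for Rgs2, from -0.13 to -0.69 for Itgae and from 1.56 to 2.72 for Rgs16.

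**Figure D3:**
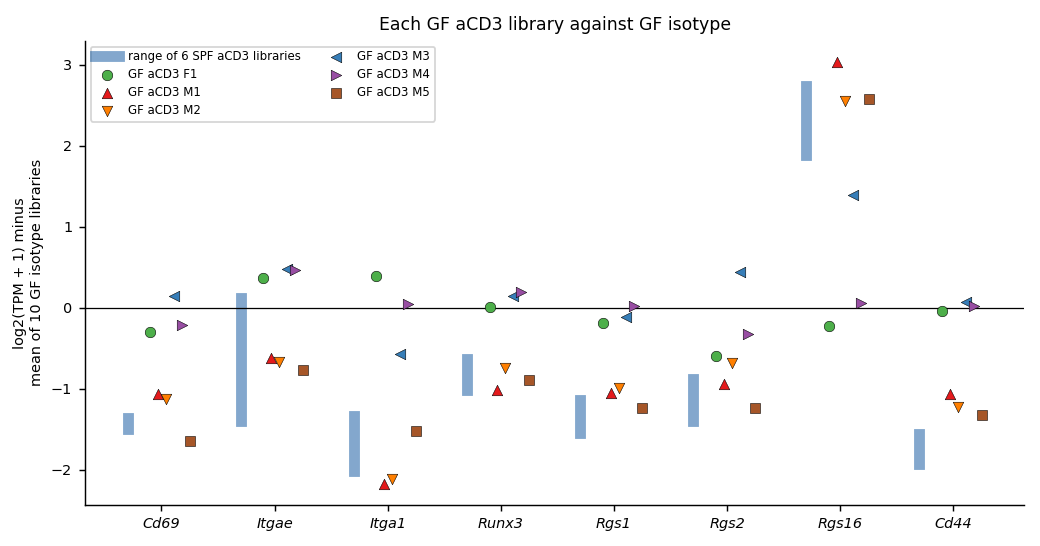
Level of each gene in each of the 6 GF aCD3 libraries (symbols), as log2(TPM + 1) minus the mean of the 10 GF isotype libraries (line at 0); the blue bar is the range of the 6 SPF aCD3 libraries. M1, M2 and M5 lie away from the line and F1, M3 and M4 nearer to it for Cd69, Itga1, Runx3, Rgs1, Rgs16 and Cd44, while for Rgs2 the library F1 is close to M2.

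Sample numbers in the column names put the GF libraries in a block of 25 to 33 and a block of 48 to 54, and 3 of the genes differed between blocks under isotype alone. Itga1 was at 4.66 to 7.80 TPM in the 6 GF isotype libraries numbered 25 to 30 and at 12.1 to 16.6 TPM in the 4 numbered 48 to 51, a difference of 1.17 (SE 0.10, limma adjusted p = 0.000983). Rgs2 was lower in 48 to 51 (-1.06, SE 0.19, adjusted p = 0.0137), at 196.0 to 438.2 against 485.2 to 638.0 TPM, and so was Rgs16 (-1.42, SE 0.19, adjusted p = 0.00412), at 1.41 to 2.24 against 3.43 to 12.3 TPM. These 3 of 8 stand beside 10.3% of all tested genes that passed. For each of the 3 the 2 sets of isotype libraries did not overlap, and the share of all genes without such overlap was not counted.

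Within blocks the aCD3 difference kept its sign for 7 of the 8 genes, and the lowest adjusted p by limma was 0.302. It was -0.80 in 25 to 33 and -0.61 in 48 to 54 for Cd69, -0.85 and -0.50 for Rgs1, 1.38 and 1.53 for Rgs16, -0.57 and -0.49 for Cd44, -0.92 and -0.97 for Itga1, -0.44 and -0.28 for Runx3, -0.74 and -0.16 for Rgs2, and -0.77 and 0.01 for Itgae. With the block as a covariate, Itga1 (-1.12, limma adjusted p = 0.0177) and Cd44 (-0.56, adjusted p = 0.0330) passed as well. In that fit 2215 of all 12182 tested genes passed, against 862 without the block. The SPF libraries are numbered 1 to 12, so housing and number block cannot be told apart.

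**Figure D4:**
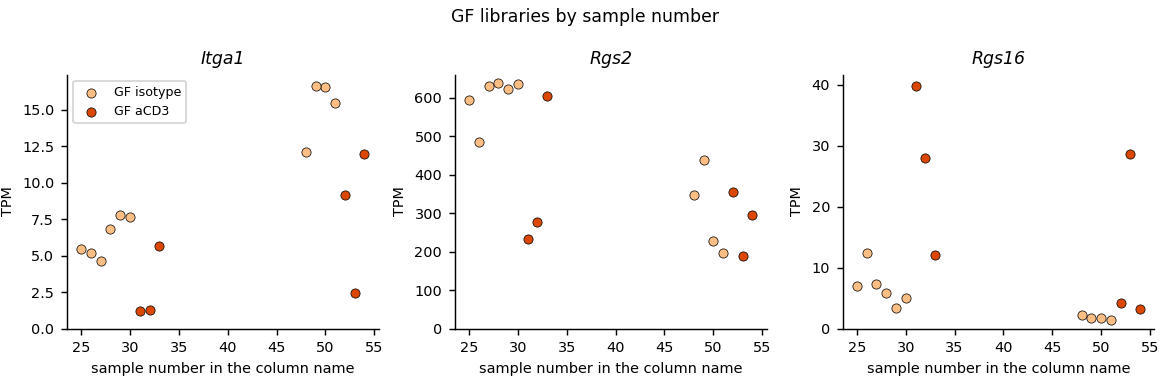
TPM of Itga1, Rgs2 and Rgs16 (y axes from 0) against the sample number in the column name, for GF isotype (light) and GF aCD3 (dark). Isotype libraries 48 to 51 are above 25 to 30 for Itga1 and below them for Rgs2 and Rgs16.

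Around the residency genes, few genes of the lists passed in GF, beside 4.61% of all genes lower and 2.46% higher. These calls share the limit of the residency genes: leaving out any 1 of the same 25 libraries left 0 of all genes past the threshold. Of the 32 residency associated genes 4 fell with aCD3 (Cdh1, Ldlrad4, Dusp6 and Gpr183), and Gpr183, a receptor for oxysterols that guides lymphocytes, was at -0.70 (adjusted p = 0.0481). Of 17 egress genes Ccr7 rose (1.51, adjusted p = 0.0499) and Il7r fell (-1.77, adjusted p = 0.0499), while S1pr1 was at -0.02 (adjusted p = 0.949). Itgb1 fell (-0.59, adjusted p = 0.0481), as in SPF.

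Under isotype, none of the 8 genes differed between GF and SPF by limma, beside 7.17% of all tested genes. Their log2 differences, GF against SPF, ran from -0.40 (Rgs16) to 0.13 (Cd44), the lowest unadjusted p was 0.116 (Rgs1, adjusted p = 0.315), and 0 of 8 had an unadjusted p under 0.05. After rescaling 0 of 8 passed, beside 1.67% of all genes. Means were 603.1 ± 91.9 TPM for Cd69, 56.0 ± 7.19 TPM for Runx3 and 73.6 ± 7.30 TPM for Cd44 in GF isotype (SD, n = 10), all within 1 SD of SPF isotype. For Itga1, Rgs2 and Rgs16 this pools the number blocks that do not overlap within GF isotype. Rgs2 averaged 601.2 ± 58.9 TPM in 25 to 30 (SD, n = 6) and 302.2 ± 111.5 TPM in 48 to 51 (SD, n = 4), around 445.2 ± 92.9 TPM in SPF isotype (SD, n = 6), with 5 of 10 GF libraries above and 3 below every SPF library. Around the 8 genes, Klf2 (-1.29, adjusted p = 0.0298) and Ccr7 (-1.83, adjusted p = 0.0178) were lower in GF. Hspa1a of the heat shock list was lower too (-2.60, adjusted p = 0.000554), where Cd69 was at -0.15 (adjusted p = 0.616). Cxcr6, a chemokine receptor of resident T cells, Chn2, Skil and Dusp6 were higher, of which Skil, a brake on SMAD signalling, was at 0.55 (adjusted p = 0.00718). After rescaling 1 of these 4, Skil, passed (0.39, adjusted p = 0.00735).

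Under aCD3, Cd44, Cd69, Rgs1 and Runx3 were higher in GF than in SPF, 4 of 8 beside 53.3% of all tested genes (48.9% higher and 4.46% lower). Cd44 was higher by 1.18 (SE 0.19, limma adjusted p = 0.000182), and by 0.79 after rescaling (adjusted p = 9.94e-05). All 6 GF aCD3 libraries, at 28.7 to 76.7 TPM, were above the highest SPF aCD3 library at 24.3 TPM, a lack of overlap in that direction seen for 12.2% of all genes. Cd44 was thus above SPF aCD3 also in M1, M2 and M5.

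The other 3 calls were lost on rescaling, which left 1 of 8 beside 32.7% of all genes. Cd69 went from 0.74 (limma adjusted p = 0.00453) to 0.33 (adjusted p = 0.111), Rgs1 from 0.72 (adjusted p = 0.00306) to 0.31 (adjusted p = 0.113) and Runx3 from 0.51 (adjusted p = 0.0188) to 0.11 (adjusted p = 0.451). Runx3 also lost its call without GF aCD3 F1 (0.42, adjusted p = 0.0810), M3 (0.41, adjusted p = 0.0586) or M4 (0.40, adjusted p = 0.0594). Rgs16 passed without GF aCD3 M1 (-1.16, adjusted p = 0.0419) and Rgs2 without GF aCD3 M5 (0.68, adjusted p = 0.0478). With F1, M3 and M4 all left out, and no test, the difference of mean log2 values went from 1.13 to 0.52 for Cd44, from 0.73 to 0.15 for Cd69, from 0.73 to 0.23 for Rgs1, from 0.49 to -0.01 for Runx3 and from 0.58 to 0.18 for Rgs2. It changed sign for Rgs16 (-0.79 to 0.36), Itga1 (0.64 to -0.31) and Itgae (0.47 to -0.10), as it did for Runx3. S1pr1 (-1.48, adjusted p = 0.000150) and Klf2 (-1.38, adjusted p = 0.00793) were lower in GF aCD3 than in SPF aCD3, and Xcl1 was higher (3.09, adjusted p = 2.79e-06).

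The aCD3 effect itself differed between GF and SPF for Cd44 and Rgs1, 2 of 8 beside 3.48% of all tested genes (2 of 8 beside 11.3% after rescaling). The difference of log2 effects was 1.05 for Cd44 (SE 0.25, limma adjusted p = 0.0288; 0.82 after rescaling, adjusted p = 0.00672) and 0.98 for Rgs1 (SE 0.25, adjusted p = 0.0335; 0.74 after rescaling, adjusted p = 0.0269), a smaller decrease in the libraries labelled GF. It includes F1, M3 and M4, whose treatment or label is in doubt. Cd69 was at 0.89 (adjusted p = 0.0554) and passed without GF aCD3 M1, M2 or M5 (0.96, 0.97 and 1.07) or SPF isotype F3 (0.90). The remaining 5 genes ran from -0.48 (Rgs16) to 0.61 (Itga1) and did not pass. Leaving out GF aCD3 F1, M3 or M4 took both calls away, with Cd44 at 0.93, 0.92 and 0.93 and Rgs1 at 0.86, 0.89 and 0.87. SPF aCD3 M2 and SPF isotype F2 did the same (Cd44 1.02 in both, Rgs1 0.97 and 0.91), and SPF aCD3 F3 or M3 and SPF isotype F1 or M1 took away Rgs1 alone.

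The spread among GF isotype libraries is given within number blocks, since Itga1, Rgs2 and Rgs16 differ between them. In 25 to 30 the coefficient of variation was 9.63% for Cd44, 9.80% for Rgs2, 11.1% for Runx3, 13.0% for Cd69, 13.2% for Rgs1, 21.5% for Itga1, 43.3% for Itgae and 44.8% for Rgs16. In 48 to 51 it was 7.03% for Cd44, 13.5% for Runx3, 13.9% for Itga1, 15.1% for Rgs1, 18.5% for Cd69, 19.8% for Rgs16, 36.9% for Rgs2 and 64.9% for Itgae, so Cd44 was the most even of the 8 in both blocks.

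Over the 28 libraries, which share groups, scaling and number blocks, the genes with the most similar pattern were found among 7923 by Pearson's r of rescaled log2 values. For Cd69 these were Junb (r = 0.958) and Dusp1 (r = 0.954), both immediate early genes, and for Rgs1 they were Arl4a (r = 0.923) and Cd69 (r = 0.912). Cd44 was most like Cd40lg (r = 0.982) and Tasor2 (r = 0.981), and Itga1 most like Pde3b (r = 0.963) and Car2 (r = 0.958). Rgs16 was like Csrp1 (r = 0.961), Rgs2 like Spty2d1 (r = 0.916) and Ppp1r15a (r = 0.883), and Runx3 like Ptger1 (r = 0.912) and Adck2 (r = 0.912). The highest value for Itgae was lower, with Prag1 (r = 0.806) and Cd7 (r = 0.744). Among the 8 themselves, r was -0.92 between Itga1 and Rgs16 and 0.12 between Itgae and Itga1. These are descriptions over libraries that fall into groups, with no test.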

How the data were processed

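Groups, replicate names and sex came from the labels. The deposited values are TPM, made by the authors with HOMER (analyzeRepeats.pl, RefSeq transcripts of mm10, condensed per gene) as the header row of the deposited table records. The length column equals the genomic span in 99.24% of rows, so introns are counted in and levels are not compared between genes. The aligner, read filters and use of strand are not given in the sources used here. Multiplying TPM by length gave whole reads (within 0.1 read) in 100% of the 394 to 722 low values checked per library. The 26 other TPM columns match no sample and were not used.

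Genes with at least 1 TPM in at least 6 libraries were tested (12182). The test was limma 3.58.1 in R 4.3.3 on log2(TPM + 1), with group means and a sex term over 28 libraries, a trend, and Benjamini-Hochberg adjustment over all genes within each of 5 comparisons (threshold 0.05). Fold changes on the log2(TPM + 1) scale understate the change of low genes. Alternatives were pseudocounts of 0.1 and 5, no filter or 5 TPM, other scalings, voom on recovered reads, array weights, other covariates or libraries, and leaving out each library. Python 3.11.15 with pandas 2.3.3 and matplotlib 3.10.9 made tables and figures.

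Named genes are the 8 residency genes, Lag3, fixed partners (Itgb7, Itgb1, Cbfb, S1pr1, Klf2), up to 2 genes highest and 2 lowest in each list past the threshold with a mean of at least 5 TPM, and the 2 most correlated genes. Some genes under this rule are not reported here. Others named in a list are those behind small counts, chosen after their values were seen. The genes and lists were chosen with earlier results of these data known. The comparison of number blocks was added after values were seen.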

Additional observations from a re-analysis of the deposited data

Results flagged for a closer look

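The aCD3 effect on Rgs1 and on Cd44 differed between GF and SPF by limma's test of the difference, which is what brought them here: the difference of log2 effects, GF minus SPF, was 0.98 for Rgs1 and 1.05 for Cd44. Both genes were lower in 6 of 6 SPF aCD3 libraries than in any SPF isotype library and in 3 of 6 GF aCD3 libraries than in any GF isotype library. The first held for 33.4% of all tested genes. In M1, M2 and M5, taken 1 by 1, between 47.4% and 52.8% of all genes lay below every GF isotype library. The GF side holds F1, M3 and M4, whose Lag3 was at the isotype level, and whether these were treated or labelled as stated was not tested. Among 32 sets of values (8 genes in 4 groups), no library lay far enough from its group to be listed.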

How the results depend on the processing

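The SPF result held: 7 or 8 of the 8 genes passed under every setting run, with Itgae the gene that joined, and no value of a called gene reversed. For GF aCD3 against GF isotype, the 3 calls became 0 with a pseudocount of 0.1, no low-value filter, only the groups compared, males only, or within either number block, 5 without the sex term or with the number block as covariate, and 6 with array weights. Of all 12182 genes, 862 passed in the main fit, 2472 without the sex term, 2215 with the number block and 3636 with array weights. Leaving out each library gave 0 to 7 calls, with 7 without GF aCD3 M3, 6 without F1 or M4, and 0 for each of the other 25 libraries. Over all genes 4213 passed without M3, 3630 without F1 and 3859 without M4. For GF isotype against SPF isotype there were 0 under each setting and 0 to 0 on leaving out each library. For GF aCD3 against SPF aCD3, the 4 calls became 1 after median-of-ratios scaling, 2 with voom, 1 in males only, and 3 with quantile normalization, array weights or only the groups compared (where Runx3 was at 0.57, adjusted p = 0.0720), and 3 to 5 on leaving out each library. All-gene counts in this comparison went from 6496 to 3988 after that scaling, 4273 with voom and 1765 in males only. They were 3348 with quantile normalization, 3680 with array weights and 4586 with only the groups compared. For the difference of effects, the 2 calls became 0 with no filter or in males only, 1 with quantile normalization or array weights, and 0 to 3 on leaving out each library. Its all-gene count went from 424 to 177 with no filter, 1 in males only, 791 with quantile normalization and 159 with array weights. The causes were not tested. The subsets held fewer libraries and the unfiltered fit more genes. With the replicate name as a replicate block, 0 genes passed in GF and 0 in the difference of effects, while Itgae passed in SPF (adjusted p = 0.0405) and Rgs2 passed between the aCD3 groups (0.76, adjusted p = 0.00738). The names do not pair the libraries: deviations of same-named libraries correlated at -0.03 to 0.10 in SPF and -0.21 to 0.20 in GF, and F3 in SPF was the only one that correlated best with its own name. Depth limits Rgs16 most, with as few as 11 reads.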
